A study of Mus musculus with 2 samples.

Results

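The genes of the subunits of glutamate and GABA receptors were described across the cell identities of the murine dentate gyrus (DG). They were taken by symbol from the filtered count matrix, with no measured value used: all AMPA, NMDA, kainate and delta receptor subunits, the metabotropic glutamate (mGlu) receptors, the alpha, beta, gamma and delta subunits of GABA-A receptors and both GABA-B receptor subunits. Of 41 such symbols, 37 were among the 15474 genes of the matrix, and Grin2d, Grm4, Grm6 and Gabra6 were not analysed here. The 37 genes comprised 4 AMPA, 6 NMDA, 5 kainate, 2 delta and 6 mGlu receptor genes, 12 GABA-A and 2 GABA-B receptor genes. Cells came from the dissociated DG of C57BL/6J mice, 4 to 5 weeks old. The fresh library was made from cells of 3 pooled mice, sorted directly after dissociation with a dead cell stain (Sytox AADvanced). The MeOH-fixed library was made from cells of 4 pooled mice, fixed in methanol (MeOH), stored frozen for 3 weeks and rehydrated before sorting, without that stain. Each library was 1 plate of SORT-seq, which sorts single cells into wells and counts the 3′ ends of polyadenylated transcripts by unique molecular identifiers (UMIs). With 1 library per condition, no difference could be tested, and all intervals are exact 95% intervals that cover counting error only.

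AMPA, NMDA and kainate receptors are ligand-gated cation channels assembled from subunits of their own class, and mediate excitatory transmission, whereas the delta subunits act mainly as synaptic organisers. GABA-A receptors are chloride channels built from alpha, beta and either gamma or delta subunits, while mGlu and GABA-B receptors signal through G proteins. In the DG, GABA depolarises newborn granule cells before glutamatergic synapses form, and astrocytes and oligodendrocyte precursor cells (OPCs) also carry receptors for both transmitters.

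The AMPA receptor subunits had the most UMIs of any class in both libraries, and the codon of their Q/R site is shown because editing of its transcript sets Gria2, whose share differed between cell identities, apart from the other subunits. At this site in the channel pore, the adenosine in the middle of the Gria2 codon is edited to inosine in nearly all brain transcripts, which makes AMPA receptors with the Gria2 product poorly permeable to calcium. The codon is in capitals within 33 bases of the coding strand, read from GENCODE vM21 transcripts (GRCm38), and lies at chr11:57243094-57243096 in Gria1, chr3:80706911-80706913 in Gria2, chrX:41610265-41610267 in Gria3 and chr9:4464137-4464139 in Gria4. It is in coding exon sequence of each gene, exon 11 of 16 in the transcripts used for Gria1 to Gria3 and exon 12 of 17 for Gria4.
Gria1: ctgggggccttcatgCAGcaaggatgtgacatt
Gria2: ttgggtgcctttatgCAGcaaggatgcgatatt
Gria3: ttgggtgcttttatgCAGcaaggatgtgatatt
Gria4: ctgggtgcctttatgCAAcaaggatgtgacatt
The genomic codon was CAG in Gria1, Gria2 and Gria3 and CAA in Gria4, glutamine in all, and Gria2 shared 31 of the 33 bases with Gria3 and 28 with Gria1. The deposited counts of 3′ ends hold no sequence, so editing was not measured here.

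After filtering, the libraries held 64 fresh and 132 MeOH-fixed cells with 534122 and 729018 UMIs, and medians of 6318 and 3451.5 UMIs per cell. The 8 cell identities were those the authors assigned by clustering both libraries together. The clustering used the same counts, so differences between identities are descriptions. 24 well barcodes held a cell in both libraries, since every plate uses the same 384. MeOH-fixed cells comprised 29 astrocytes and radial glia-like cells (RGLs), 21 neuronal intermediate progenitor cells (nIPCs) and neuroblasts, 25 immature and 19 mature neurons, 10 OPCs, 13 oligodendrocytes, 7 microglia and 8 endothelial cells. The fresh library held 18, 16, 5, 2, 5, 2, 10 and 6 of them. Most identities carried their markers, with exceptions that touch the receptor genes. The 2 fresh mature neurons had no UMI of Snap25, Rbfox3 or Slc17a7 and of 7 mature neuron markers only Mfsd4 with 1 UMI, so they went against their label and their values are given separately. The nIPCs and neuroblasts held cells rich in Reln, a marker of Cajal-Retzius cells: 4 of 21 MeOH-fixed cells and 1 of 16 fresh cells had at least 5 Reln UMIs. 1 of 5 fresh OPCs and 2 of 10 MeOH-fixed OPCs had a UMI of the oligodendrocyte gene Mog. The MeOH-fixed mature neurons were shallower than the immature neurons (median 2554 against 11563 UMIs) and had more mitochondrial counts (median 17% against 6.26%). The 7 mature neuron markers together were at 1353 CPM (UMIs per 1000000 UMIs of the summed cells) in the mature and 1574 CPM in the immature neurons of the MeOH-fixed library, so this list did not set the mature neurons apart. Mfsd4 was higher in the mature neurons, at 152 against 46.4 CPM, and Calb1 lower, at 303 against 755 CPM. The 7 immature neuron markers were at 1906 CPM in fresh nIPCs and neuroblasts and 1655 CPM in fresh immature neurons. This list did not set these fresh identities apart, whereas the MeOH-fixed ones were at 863 and 2084 CPM. Fresh nIPCs and neuroblasts had no UMI of Mki67 or Top2a, and the other 7 of their 9 markers were found.

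Receptor subunit transcripts were concentrated in neurons. Of 5579 UMIs assigned to the subunits, 3822 lay in the MeOH-fixed library and 1757 in the fresh one. In the MeOH-fixed library the subunits together reached 8395 CPM (8071 to 8728) in immature and 9252 CPM (8619 to 9919) in mature neurons. Astrocytes and RGLs had 2416 CPM, OPCs 2123 CPM and nIPCs and neuroblasts 1782 CPM. Oligodendrocytes, microglia and endothelial cells were lowest, with 319.7, 612 and 292 CPM. The fresh library gave 8481 CPM in its 5 immature neurons, 3096 in OPCs, 2866 in astrocytes and RGLs and 2487 in nIPCs and neuroblasts. The 2 fresh mature neurons, with 572 CPM from 7 UMIs, were at the level of oligodendrocytes (658 CPM).

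**Figure D1:**
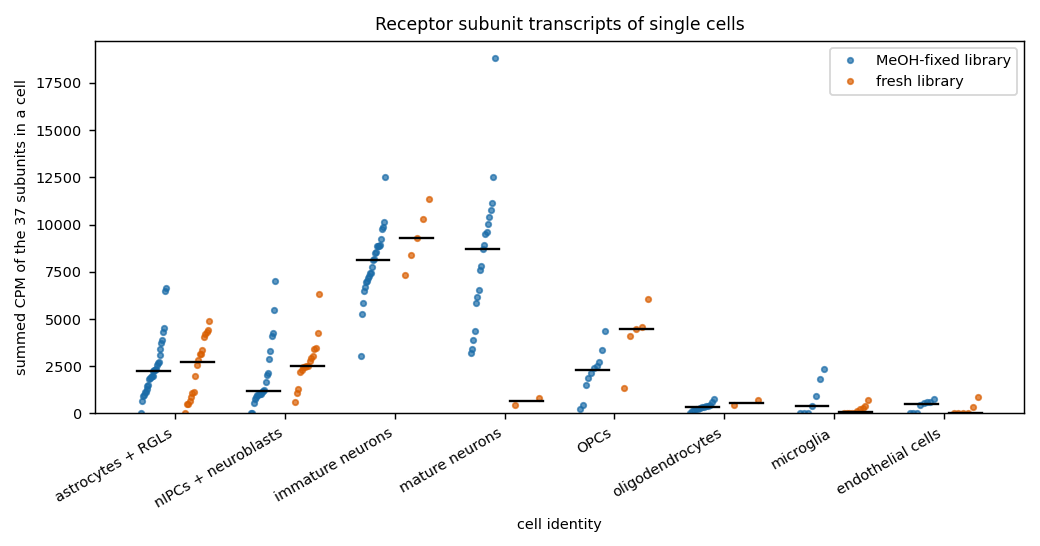
Summed level of the 37 receptor subunit genes in each cell (CPM, y axis) by cell identity (x axis), with 1 point per cell, MeOH-fixed in blue and fresh in orange, and a bar at the median. The 25 MeOH-fixed immature neurons lay between 3058 and 12532 CPM and no MeOH-fixed oligodendrocyte was above 744 CPM.

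The median immature neuron of the MeOH-fixed library had a UMI of 18 of the 37 genes (6 to 27) and the median mature neuron of 9 (2 to 20), against 5.5 in OPCs, 4 in astrocytes and RGLs, 4 in nIPCs and neuroblasts, 2 in oligodendrocytes and 1 each in microglia and endothelial cells. Depth differed between these identities, so each cell was also thinned to 800 UMIs. The medians were then 5 genes in immature and 4 in mature neurons, 1 in OPCs, in astrocytes and RGLs and in nIPCs and neuroblasts, and 0 in the other identities. The summed level of the 19 MeOH-fixed mature neurons ran from 3226 to 18787 CPM around a median of 8681, and that of the 29 astrocytes and RGLs from 0 to 6667 CPM around 2238, so the ranges overlapped while the medians lay apart.

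In the MeOH-fixed library, 7 of the 9 receptor classes had their highest level in immature or mature neurons. AMPA receptor subunits reached 4492 CPM (4054 to 4964) in mature and 2866 CPM (2678 to 3063) in immature neurons, against 1094 CPM (814 to 1438) in OPCs, 692 CPM (529.7 to 889.5) in nIPCs and neuroblasts and 409 CPM (281 to 574) in astrocytes and RGLs. GABA-A receptor subunits had the other order in neurons, 3210.1 CPM (3011 to 3419) in immature and 1645 CPM (1385 to 1940.0) in mature ones, with 694 CPM (524 to 901) in astrocytes and RGLs and 397 CPM (277 to 553) in nIPCs and neuroblasts. NMDA receptor subunits were at 1482 CPM (1235 to 1763) in mature and 1017 CPM (906 to 1137) in immature neurons. The 2 exceptions were group II mGlu receptors, highest in astrocytes and RGLs with 396 CPM (271 to 559.6) against 198 CPM (116 to 318) in mature neurons, and delta receptors, highest in OPCs from 4 UMIs. The interval of group II receptors in astrocytes and RGLs lay above that of immature neurons and overlapped that of mature neurons, and the 4 UMIs of delta receptors in OPCs overlapped with every other identity in which they were found. In the fresh library 6 classes were highest in neurons, with GABA-B receptors as a further exception.

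The subunit with the most UMIs of all was Gria2. In MeOH-fixed cells it ran from 2975 CPM in mature neurons through 1471 in immature neurons, 686 in OPCs, 443 in nIPCs and neuroblasts and 347 in astrocytes and RGLs to 44.1 in oligodendrocytes, with no UMI in microglia and endothelial cells. The intervals of OPCs and nIPCs and neuroblasts overlapped, as did those of nIPCs and neuroblasts and of astrocytes and RGLs, whereas immature neurons lay above OPCs and astrocytes and RGLs above oligodendrocytes. Gabbr1 was at 268 CPM in immature and 233 in mature neurons, 149 in astrocytes and RGLs and 125 in nIPCs and neuroblasts. Grik5, the leading kainate receptor subunit, was likewise found in mature neurons (327 CPM), nIPCs and neuroblasts (170.3), OPCs (150.1) and astrocytes and RGLs (111). The fresh library had the other order for Gabbr1 and Gabbr2 together. They were at 356 CPM (253 to 487) in astrocytes and RGLs and 135 CPM (72 to 231) in immature neurons.

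**Figure D2:**
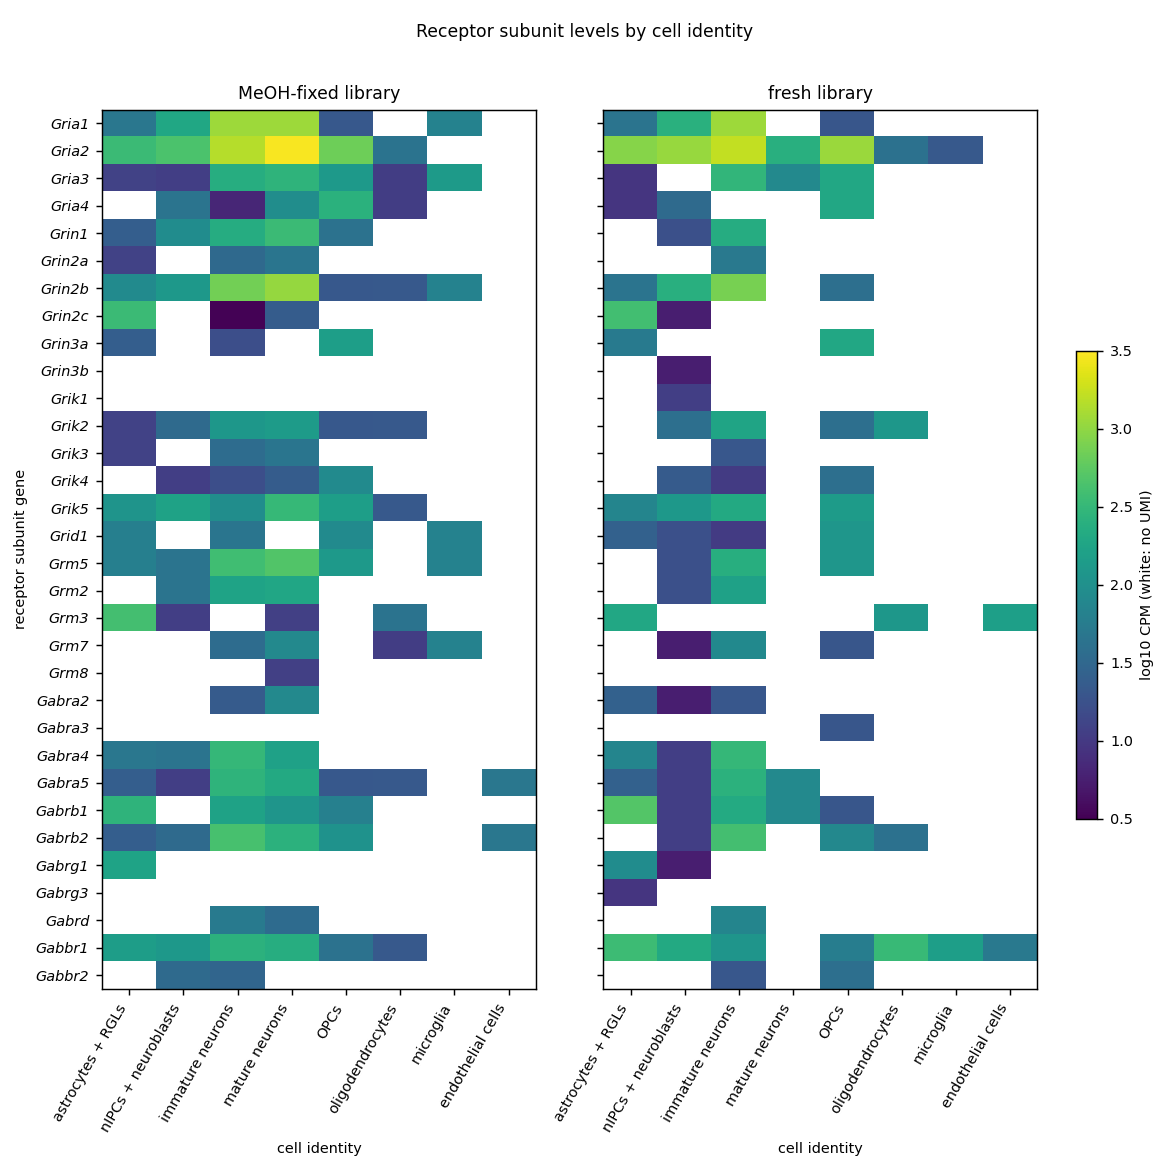
Level of 32 of the 37 receptor subunit genes (y axis) in the 8 cell identities (x axis) of both libraries, as log10 CPM of the summed cells, with white for no UMI. Gria2 reached 2975 CPM in MeOH-fixed mature neurons, and Grin2c, Grm3 and Gabrg1 were highest in astrocytes and RGLs in both libraries. For Grm3 in the fresh library, the interval there overlapped those of oligodendrocytes and endothelial cells.

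From nIPCs and neuroblasts to immature neurons, 14 of the 24 subunits that could be compared were higher and none was lower. A gene was called different when its CPM differed at least 2-fold, its exact Poisson intervals did not overlap and it had at least 10 UMIs over both identities of the MeOH-fixed library. These 14 stood beside 11% of all 6487 genes tested that were higher and 8.22% that were lower. The 24 included subunits that reached 10 UMIs only through the immature neurons, which had 301864 UMIs against 88091. All 14 were on the same side in the fresh library, and 13 met the same rule there. With groups at 0 set to 3 counts, the median ratio of the 24 was 3.7, against 1.13 over all genes tested.

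Among AMPA receptor subunits, Gria1 had 193 CPM from 17 UMIs (112 to 309) in nIPCs and neuroblasts and 1153 CPM from 348 UMIs (1035 to 1281) in immature neurons of the MeOH-fixed library, 5.97-fold (3.68 to 10.4) higher. In the fresh library the values were 250.4 and 1155 CPM, so both libraries had the lower level in progenitors. Gria2 had 443 CPM from 39 UMIs (315 to 605) in nIPCs and neuroblasts and 1471 CPM from 444 UMIs (1337 to 1614) in immature neurons of the MeOH-fixed library, 3.32-fold (2.39 to 4.74) higher. Fresh nIPCs and neuroblasts held more Gria2 than MeOH-fixed ones, 1087 CPM (938 to 1252), and fresh immature neurons, at 1675 CPM, were 1.54-fold (1.24 to 1.91) higher, which did not meet the rule. Gria3 was almost at 0 in progenitors, with 1 UMI in MeOH-fixed and 0 in fresh nIPCs and neuroblasts against 235 and 302 CPM in immature neurons, 20.7-fold (3.6 to 829.8) higher in MeOH-fixed cells.

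Of the NMDA receptor subunits, Grin2b, the GluN2 subunit known from early development, was at 125 CPM from 11 UMIs (62.3 to 223) to 735 CPM from 222 UMIs (642 to 839), 5.89-fold (3.23 to 12) higher, and at 245 and 759.6 CPM in the fresh library. The obligatory subunit Grin1 had 90.8 and 229 CPM and was not called in the MeOH-fixed library, where it was 2.52-fold (1.21 to 6.06) higher in immature neurons. Of its 8 UMIs in nIPCs and neuroblasts, 7 came from the 4 cells rich in Reln, and without those cells Grin1 was called higher in immature neurons. The fresh library, with 1 such cell, had Grin1 at 17.1 against 229 CPM.

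mGlu receptors were among the 14 as well. Grm5, a group I receptor, had 45.4 and 381 CPM, 8.39-fold (3.19 to 31.3) higher, and 17.1 and 239 CPM in the fresh library. Grm2, a presynaptic group II receptor of granule cells, had 45.4 and 172 CPM, 3.79-fold (1.4 to 14.4) higher, and its call was lost without the 4 Reln-rich cells.

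GABA-A receptor subunits were among the 14 too. Gabra4, an alpha subunit found mainly outside synapses, had 45.4 CPM in nIPCs and neuroblasts and 315 CPM in immature neurons of the MeOH-fixed library, 6.93-fold (2.62 to 26) higher, and 11.4 and 312 CPM in the fresh library. Gabra5, likewise known from extrasynaptic receptors, had 1 UMI and 282 CPM, 24.8-fold (4.33 to 991) higher, and 2 UMIs and 271 CPM in fresh cells. Both had the lower level in progenitors of either library. The beta subunit Gabrb2 was 12.5-fold (4.2 to 61.6) higher, from 3 UMIs in progenitors to 427 CPM in immature neurons, with 406 CPM in fresh ones. Gabrb1, another beta subunit, had no UMI in MeOH-fixed progenitors and 169 CPM in immature neurons, at least 4.96-fold higher.

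The 10 tested subunits that were not called were Grin1, Grin2a, Grik2, Grik3, Grik5, Grid1, Grm7, Gabrd, Gabbr1 and Gabbr2. Of these, Grin2a, Grik3, Grid1, Grm7 and Gabrd had no UMI in MeOH-fixed nIPCs and neuroblasts, where up to 41.9 CPM could have been missed, and 10 to 16 UMIs in immature neurons. Grik5, a kainate receptor subunit that needs a partner to form channels, was lower in level in immature neurons of the MeOH-fixed library without being called, with 170.3 CPM in nIPCs and neuroblasts and 92.8 CPM in immature neurons with overlapping intervals. In the fresh library Grik5 was on the other side, at 125 and 208 CPM. Gabbr1, the ligand-binding GABA-B subunit, had 125 and 268 CPM in MeOH-fixed cells but 211 and 114 CPM in fresh cells, so the libraries gave opposite orders, each with overlapping intervals.

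**Figure D3:**
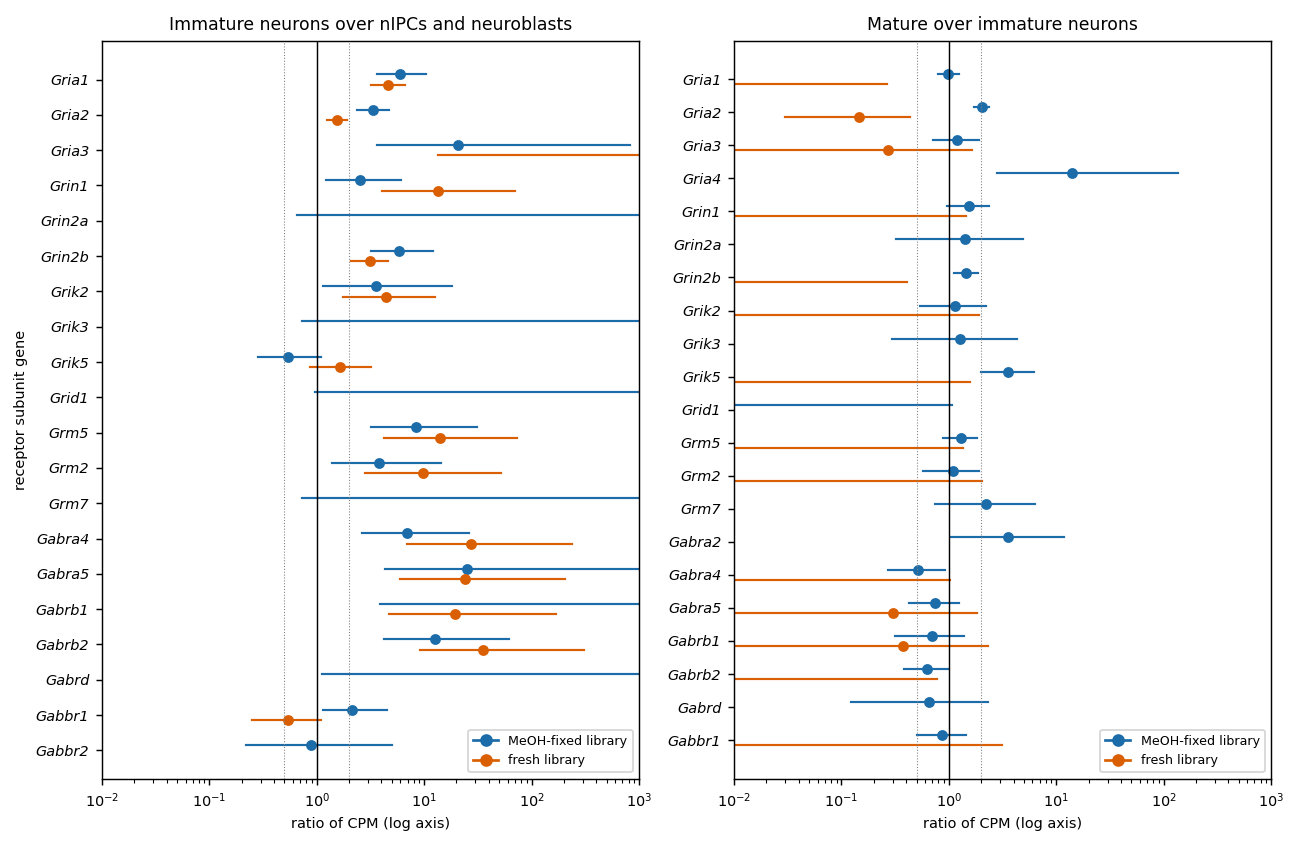
Ratio of CPM (log axis) for each receptor subunit with at least 10 UMIs, for immature neurons over nIPCs and neuroblasts on the left and mature over immature neurons on the right, with exact 95% intervals, MeOH-fixed in blue and fresh in orange. Lines without a dot are subunits with no UMI in 1 identity, dotted lines mark a 2-fold difference, and the left dots of the alpha and beta subunits shown lie right of it in both libraries.

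Mature and immature neurons of the MeOH-fixed library differed in 6 of 25 tested subunits, 3 higher and 3 lower in mature neurons. Over all 6456 genes tested, 6.97% were higher and 6.72% lower. The higher ones were Gria2, Gria4 and Grik5. Gria2 was at 1471 CPM from 444 UMIs (1337 to 1614) in immature and 2975 CPM from 255 UMIs (2621 to 3364) in mature neurons, 2.02-fold (1.73 to 2.36) higher. Grik5 was at 92.8 and 327 CPM, 3.52-fold (2.01 to 6.17) higher. With each cell of equal weight the mean levels of Grik5 were 148 and 261 CPM, a ratio of 1.76, and that of Gria2 1.82, so neither was called. The 8 Gria4 UMIs of mature neurons all came from 1 cell of 19. That cell was the deepest mature neuron, with 19461 of their 85713 UMIs, and it held 14 UMIs of Calb2, the only ones among the mature neurons, and none of Calb1 or Prox1.

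Without the deepest mature neuron, 2 of the 6 still met the rule, of which Grik5 was 3.42-fold higher. The ratio of Gria2 was then 1.88 (1.57 to 2.24), on the same side but under 2-fold, and Gria4 had no UMI left. Gria1 did not differ by this rule, at 1153 CPM (1035 to 1281) and 1143 CPM (928 to 1393), a ratio of 0.992 (0.784 to 1.24). Grin2b was at 735 and 1062 CPM, 1.44-fold (1.12 to 1.85) higher and not called. The 2 fresh cells labelled mature neurons had 3 Gria2 UMIs and 245 CPM, 6.84-fold (2.3 to 33.5) lower than fresh immature neurons, opposite to the MeOH-fixed library. The part of depth and mitochondrial counts in these differences was not tested.

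The make-up of each subunit family was taken as the share of its UMIs summed over cells, in which deep cells weigh more. It differed between the identities. Gria2 made up 51.3% (47.9 to 54.7) of AMPA receptor UMIs in MeOH-fixed immature neurons and 53.5% (47.7 to 59.2) in fresh ones, so both libraries gave the same make-up within counting error. The share was 66.2% (61.3 to 70.9) in MeOH-fixed mature neurons, 69.3% (63.4 to 74.8) without the deepest cell. It was 63.9% (50.6 to 75.8) in MeOH-fixed and 79.3% (73.6 to 84.2) in fresh nIPCs and neuroblasts. In astrocytes and RGLs it was 84.8% (68.1 to 94.9) and 93.4% (86.9 to 97.3), the highest among identities with at least 10 AMPA receptor UMIs. The MeOH-fixed interval overlapped those of mature neurons, OPCs and nIPCs and neuroblasts. In OPCs, Gria2 took 62.7% (48.1 to 75.9) and 72.7% (61.4 to 82.3), with Gria4 at 23.5% (12.8 to 37.5) and 13% (6.41 to 22.6). Gria1 had 1 UMI in the OPCs of each library. Gria3 held the rest, a share close to that of Gria4 in the fresh library.

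The make-up of the GluN2 subunits differed between neurons and astrocytes and RGLs. Grin2b made up 95.3% (91.7 to 97.6) of GluN2 UMIs in MeOH-fixed immature neurons, 93.8% (87 to 97.7) in mature neurons and 93.6% (85.7 to 97.9) in fresh immature neurons. Grin2a, the subunit known to join NMDA receptors later in development, took 4.29% (2.08 to 7.75) and 4.12% (1.13 to 10.2) in MeOH-fixed immature and mature neurons, shares that did not differ beyond their intervals. In astrocytes and RGLs it was Grin2c that dominated, with 77.8% (60.8 to 89.9) in MeOH-fixed and 89.6% (77.3 to 96.5) in fresh cells. OPCs had too few GluN2 UMIs for a share, 1 in MeOH-fixed and 2 in fresh cells.

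Among GABA-A alpha subunits, Gabra4 took 27.7% (23 to 32.8) of the UMIs in MeOH-fixed and 26.3% (18.5 to 35.4) in fresh immature neurons. Gabra5 took 24.8% (20.3 to 29.7) and 22.8% (15.5 to 31.6) there and 38.3% (24.5 to 53.6) of the 47 alpha UMIs of MeOH-fixed mature neurons, with overlapping intervals. Gabrb1 was the main beta subunit of astrocytes and RGLs, with 65.7% (47.8 to 80.9) in MeOH-fixed and 94.7% (85.4 to 98.9) in fresh cells, against 10.1% (7.61 to 13.1) in MeOH-fixed immature neurons. Gabrb2 took 25.5% (21.8 to 29.6) in those neurons. Gabrd, the extrasynaptic delta subunit, was at 13.2% (7.75 to 20.6) of gamma and delta UMIs in MeOH-fixed immature neurons and had no UMI in astrocytes and RGLs, where Gabrg1 made up 93.3% (68.1 to 99.8) in MeOH-fixed and 90.9% (58.7 to 99.8) in fresh cells.

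**Figure D4:**
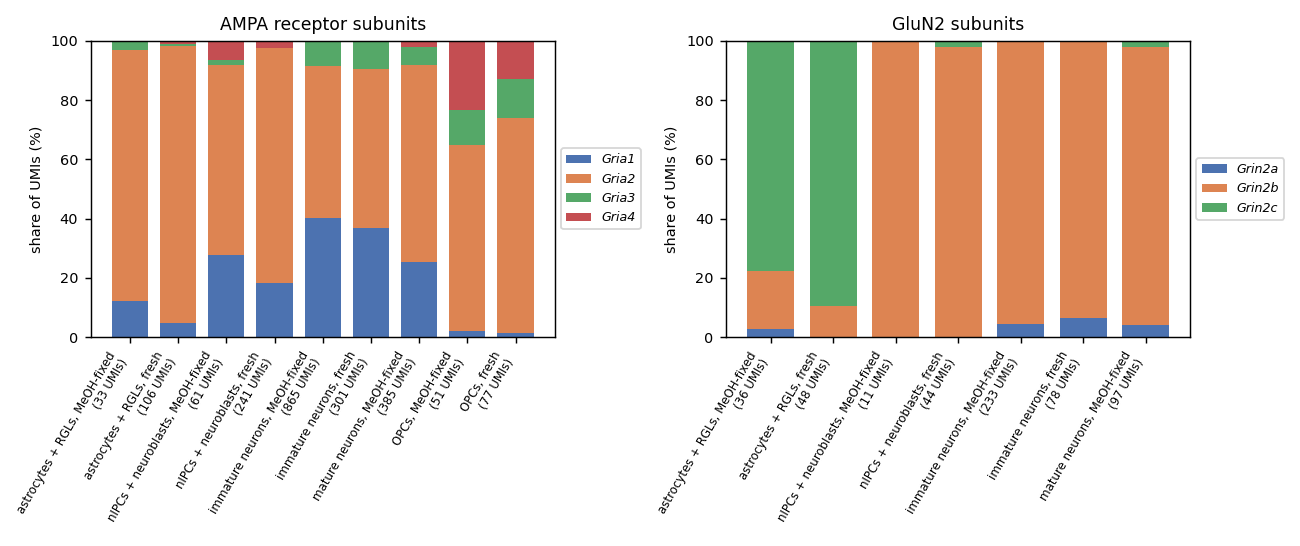
Share of UMIs (%, y axis) of each subunit within its family, by cell identity and library (x axis, with the family's UMIs in brackets), for groups with at least 10 UMIs of the family. Gria2 filled most of the AMPA bars of astrocytes and RGLs and Grin2c their GluN2 bars, in both libraries.

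The subunits high in astrocytes and RGLs were few. Against MeOH-fixed astrocytes and RGLs, nIPCs and neuroblasts were higher in 0 and lower in 4 of 11 tested subunits, Grin2c, Grm3, Gabrb1 and Gabrg1, while 18% of 3264 genes were higher and 10.1% lower. In the MeOH-fixed library these 4 reached 10 UMIs only through the astrocytes and RGLs. All 4 met the rule in the fresh library as well. The fresh library in addition had 4 subunits higher in nIPCs and neuroblasts, among them Grin2b and Gria1, with Gria1 at 250.4 against 45.6 CPM, where the MeOH-fixed values of 193 and 49.6 CPM had overlapping intervals. The fresh library had 175737 UMIs in nIPCs and neuroblasts and the MeOH-fixed one 88091. Against astrocytes and RGLs, the neurons of the MeOH-fixed library (immature and mature summed) were higher in 14 of 28 subunits and lower in 3, Grin2c, Grm3 and Gabrg1, against 15.1% and 7.09% of 7190 genes. The 14 included Gria1, Gria2, Gria3, Grin1, Grin2b, Grik2, Grm5, Grm2, Gabra4, Gabra5 and Gabrb2, and all 14 were on the same side in the fresh library. Grin2c, Grm3 and Gabrg1 reached 10 UMIs only through the astrocytes and RGLs. Most of the 14 reached 10 UMIs only through the neurons, where they were higher. Among these were Gria1, Gria3, Grin1, Grin2b, Grik2, Grm5, Grm2, Gabra4 and Gabra5.

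Grin2c, a GluN2 subunit, was at 347 CPM from 28 UMIs (230.5 to 501) in MeOH-fixed and 392 CPM from 43 UMIs (284 to 529) in fresh astrocytes and RGLs. In the rest of the MeOH-fixed library it had 3 UMIs, all in neurons, 44.8-fold (13.8 to 230.3) below astrocytes. Grin1, with which it must assemble, had 2 UMIs in MeOH-fixed and none in fresh astrocytes and RGLs. Grm3, a group II mGlu receptor, was at 396 CPM from 32 UMIs (271 to 559.6) in MeOH-fixed and 201 CPM from 22 UMIs (126 to 304) in fresh astrocytes and RGLs. Elsewhere it had 4 UMIs in MeOH-fixed and 3 in fresh oligodendrocytes, 3 in fresh endothelial cells, 1 in MeOH-fixed mature neurons and 1 in MeOH-fixed nIPCs and neuroblasts. In fresh cells these were 123 CPM (25.4 to 361) in oligodendrocytes and 155 CPM (31.9 to 452) in endothelial cells. Both intervals overlapped that of fresh astrocytes and RGLs. Grm2, of the same group, had no UMI in astrocytes and RGLs of either library and 52 and 16 UMIs in MeOH-fixed immature and mature neurons.

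Gabrg1 was found at 173 CPM from 14 UMIs (94.8 to 291) in MeOH-fixed and 91.3 CPM from 10 UMIs (43.8 to 168) in fresh astrocytes and RGLs, and elsewhere in 1 UMI of fresh nIPCs and neuroblasts. The neurons, with 387577 UMIs in the MeOH-fixed library, had none, so Gabrg1 was at least 22.4-fold lower there. Gabrb1 differed from these by a second site of expression. It was at 285 CPM (181 to 428) in MeOH-fixed and 493 CPM (370.2 to 643) in fresh astrocytes and RGLs, at 169 and 219 CPM in immature neurons, and had no UMI in MeOH-fixed and 2 in fresh nIPCs and neuroblasts. Gria2 was also well above 0 in astrocytes and RGLs, at 347 CPM from 28 UMIs (230.5 to 501) in MeOH-fixed and 904 CPM from 99 UMIs (734 to 1100) in fresh cells. Gabbr1 was at 149 and 356 CPM there, but its partner Gabbr2 had no UMI. Of the 29 MeOH-fixed cells, 12 had a UMI of Grin2c, 17 of Grm3, 12 of Gabrb1 and 11 of Gabrg1, whereas the 7 microglia had none of these 4 genes. The median depths of microglia and of astrocytes and RGLs were close, 2134 and 2196 UMIs, but the deepest cells had 2654 and 6999 UMIs and the totals were 14707 and 80722. After thinning to 800 UMIs, 24.1%, 24.1%, 17.2% and 17.2% of these astrocytes and RGLs still had a UMI of the 4 genes, in that order.

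The promoters of Grin2c, Grm3 and Gabrg1, the 3 subunits higher in astrocytes and RGLs than in neurons, progenitors and OPCs alike, are given from RefSeq (GRCm38.p6), from 250 bases before to 50 after the gene start that RefSeq gives. They lie at chr11:115267194-115267493, minus strand, chr5:9725303-9725602, minus strand, and chr5:70842568-70842867, minus strand. The Grm3 window lies upstream of the start of the gene in GENCODE vM21, at position 9725170 of chromosome 5. RefSeq promoters matched 23 of the 37 genes. Capitals mark E-boxes (CANNTG) and the TTGGC core of nuclear factor I sites, searched on both strands.
Grin2c: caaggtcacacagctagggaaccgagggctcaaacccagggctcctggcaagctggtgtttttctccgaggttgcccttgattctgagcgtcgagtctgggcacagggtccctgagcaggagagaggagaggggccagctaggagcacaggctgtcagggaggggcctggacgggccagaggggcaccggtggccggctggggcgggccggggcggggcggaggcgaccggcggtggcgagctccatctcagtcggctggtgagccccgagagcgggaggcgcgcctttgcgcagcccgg
Grm3: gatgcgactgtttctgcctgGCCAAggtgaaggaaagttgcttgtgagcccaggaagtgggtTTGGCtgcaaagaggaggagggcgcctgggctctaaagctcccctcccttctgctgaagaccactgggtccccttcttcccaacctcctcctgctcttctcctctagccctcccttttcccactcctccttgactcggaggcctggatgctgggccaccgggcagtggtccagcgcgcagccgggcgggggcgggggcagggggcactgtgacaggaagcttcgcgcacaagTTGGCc
Gabrg1: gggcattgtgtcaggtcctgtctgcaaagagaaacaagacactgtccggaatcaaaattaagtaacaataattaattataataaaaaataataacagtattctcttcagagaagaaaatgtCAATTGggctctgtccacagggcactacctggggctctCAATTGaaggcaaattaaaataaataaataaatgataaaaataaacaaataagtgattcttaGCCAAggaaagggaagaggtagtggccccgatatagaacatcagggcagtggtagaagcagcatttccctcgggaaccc
The Grin2c window had neither motif, the Grm3 window 3 TTGGC matches and the Gabrg1 window 2 E-boxes and 1 TTGGC match. CANNTG was in 72.3% and TTGGC in 46.7% of all 32851 promoters of the same length. The windows had 22, 11 and 3 CG pairs, in the same order, against a median of 7 over all promoters.

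**Figure D5:**
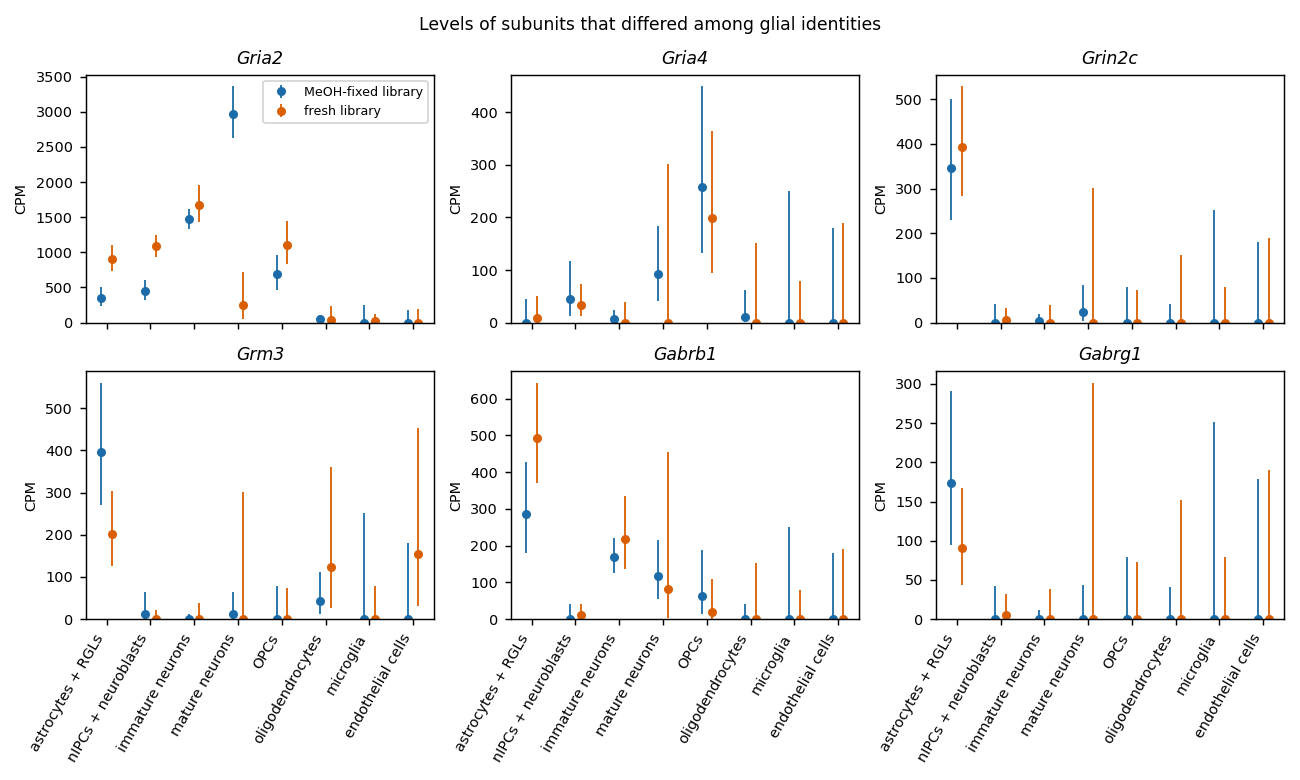
Level (CPM, y axis) of 6 receptor subunits in the 8 cell identities (x axis), with exact 95% Poisson intervals, MeOH-fixed in blue and fresh in orange. Grin2c, Grm3 and Gabrg1 were highest in astrocytes and RGLs and Gria4 in OPCs, in both libraries. The fresh interval of Grm3 in astrocytes and RGLs overlapped those of oligodendrocytes and endothelial cells. The MeOH-fixed interval of Gria4 in OPCs overlapped that of mature neurons.

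OPCs, which receive synapses from neurons, differed from oligodendrocytes in 2 of 3 tested subunits, Gria2 and Gria4, both higher in OPCs, against 9.1% of 2726 genes higher and 10.1% lower. Both reached 10 UMIs only through the OPCs, where they were higher. Gria2 was at 686 CPM from 32 UMIs (469 to 969) in MeOH-fixed OPCs and 44.1 CPM from 4 UMIs (12 to 113) in oligodendrocytes, 15.6-fold (5.52 to 60.6) higher, and at 1111 and 41.1 CPM in the fresh library. Gria4 was at 257 CPM from 12 UMIs (133 to 449.5) and 1 UMI in MeOH-fixed cells, 23.3-fold (3.45 to 998) higher, and at 198 CPM (95.2 to 365) and 0 UMIs in fresh cells, where it did not meet the rule. It was found in 5 of 10 MeOH-fixed and 5 of 5 fresh OPCs, and in 0 of 7 MeOH-fixed microglia (median 3288 UMIs in OPCs and 2134 in microglia), and after thinning in 10% of MeOH-fixed OPCs. Its level was higher in OPCs than in any other identity of either library. The MeOH-fixed interval overlapped that of mature neurons, at 93.3 CPM (40.3 to 184). Both calls stood without the OPCs that had a Mog UMI.

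Between astrocytes and RGLs and OPCs, 10 subunits were tested in the MeOH-fixed library, of which 3 were higher in astrocytes and RGLs (Grin2c, Grm3 and Gabrg1) and 1 lower (Gria4), against 8.43% and 13.2% of 2314 genes. Gria4 had no UMI in MeOH-fixed astrocytes and RGLs, 6.92-fold lower with the 0 set to 3 counts, and 1 in fresh ones. The 3 higher subunits had none in OPCs of either library. These and Gria4 reached 10 UMIs only through the identity where they were higher. Without the 2 OPCs that had a Mog UMI, Gabrg1 was no longer called. The 5 fresh OPCs and 18 fresh astrocytes and RGLs added 4 calls, among them Gabrb1 and Gabbr1 as higher and Gria3 as lower in astrocytes and RGLs, and lost Gabrg1. Grin3a, a subunit that lowers the calcium permeability of NMDA receptors, had 7 UMIs (150.1 CPM) in MeOH-fixed and 10 UMIs (198 CPM) in fresh OPCs, that is 70% (34.8 to 93.3) and 83.3% (51.6 to 97.9) of their NMDA receptor UMIs. The obligatory Grin1 had 2 and 0 UMIs there. Of alpha subunits, OPCs had 1 Gabra5 UMI in the MeOH-fixed and 1 Gabra3 UMI in the fresh library.

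Whether the partners of a receptor were found in the same cell was counted as well, with no correction for depth. A UMI of an alpha, a beta and a gamma subunit of GABA-A receptors was found in 19 of 25 MeOH-fixed immature neurons, 5 of 19 mature neurons, 2 of 29 astrocytes and RGLs, 1 of 21 nIPCs and neuroblasts and 0 of 10 OPCs. Grin1 and a GluN2 subunit were found together in 21 of 25 immature and 11 of 19 mature neurons and 1 of 29 astrocytes and RGLs. Gria1 and Gria2 shared 24 of 25 immature neurons, 17 of 19 mature neurons and 6 of 21 nIPCs and neuroblasts. Gabra4 and Gabrd, partners in extrasynaptic receptors of granule cells, were together in 10 of 25 immature and 2 of 19 mature neurons. Gabbr1 and Gabbr2, both needed for a GABA-B receptor at the cell surface, were together in 5 of 25 immature neurons. At these depths a missing UMI does not show that a cell lacked the transcript.

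The remaining subunits were scarce. Among kainate receptors, Grik2 was the main channel-forming subunit of immature neurons, at 123 CPM (86.3 to 169) and 45.7% of kainate UMIs, whereas Grik5 took 78.9% (54.4 to 93.9) in nIPCs and neuroblasts and 60.9% (45.4 to 74.9) in mature neurons. In the fresh library Grik2 was at 177 CPM in immature neurons. Grik3 had 16 UMIs in all MeOH-fixed and 2 in all fresh cells, most of them in immature neurons, and Grik4 had 12 and 7, of which 4 and 2 were in OPCs. The delta receptor subunit Grid1 had 14 UMIs in MeOH-fixed immature neurons, 5 in astrocytes and RGLs, 4 in OPCs and none in mature neurons, where up to 43.0 CPM could have been missed. In fresh cells it had 6 UMIs in OPCs and 1 in immature neurons. The group III receptor Grm7 had 11 UMIs in immature and 7 in mature neurons of the MeOH-fixed library and 8 in fresh immature neurons. Gabra2 had 7 UMIs in each, 5 of those of mature neurons in the deepest cell, and Gabrd 16 and 3, with 7 in fresh immature neurons. Gabbr2 had 12 UMIs in MeOH-fixed cells, 9 of them in immature neurons, and 4 in fresh cells, and Grin2a 15 and 5. The 6 subunits under 10 UMIs over both libraries included Grin3b, Grik1, Grm8, Gabra3 and Gabrg3, with 1 or 2 UMIs each.

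Many GABA-A receptor genes lie in clusters in the genome, by GENCODE vM21 (GRCm38), and genes of 1 cluster had unlike patterns. On chromosome 5, Gabrg1 (chr5:70751047-70842617), Gabra2 (chr5:70957597-71095849), Gabra4 (chr5:71569749-71658308) and Gabrb1 (chr5:71658113-72149037) follow each other. In MeOH-fixed astrocytes and RGLs they had 14, 0, 4 and 23 UMIs, and in immature neurons 0, 7, 95 and 51. Gabra4 and Gabrb1 are transcribed from opposite strands and overlap by their 5′ ends. Whether strand was used in counting is not given in the sources used here, so reads in the shared stretch could have been counted for either gene. The same holds for Grin1 and the gene Grin1os, which overlaps it on the opposite strand.

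Other genes of glutamate and GABA signalling, 42 of a list of 44, were compared by the same rule. Between MeOH-fixed nIPCs and neuroblasts and immature neurons, 31 had 10 UMIs, of which 16 were higher in immature neurons and 4 lower, against the 11% and 8.22% of all genes. The 16 included the vesicular glutamate transporter Slc17a7 (45.4 and 500.2 CPM), the AMPA receptor auxiliary subunits Cacng3, Cnih2, Shisa6 and Shisa9 (Cnih2 at 284 and 725 CPM), gephyrin (Gphn, 22.7 and 126 CPM), which anchors GABA-A receptors, the GABA-B receptor subunit Kctd12 (11.4 and 292 CPM) and the chloride exporter Slc12a5 (34.1 and 305 CPM), on which inhibition by GABA depends. Slc1a1, Gad1, Olfm1, Frrs1l, Dpp6 and Lhfpl4 were higher as well. Gad1, which makes GABA, was at 11.4 and 209 CPM, while Gad2 had no UMI in MeOH-fixed immature neurons. The lower ones were Slc17a6, with 15 UMIs in nIPCs and neuroblasts and none in immature neurons, Slc1a3, Glul and Abat. The chloride importer Slc12a2 was not called, at 34.1 and 29.8 CPM. Mature neurons were higher than immature ones in 2 of 29 of these genes (Slc1a3 among them) and lower in 2 (Shisa9 and Olfm1), counts that stand beside 6.97% and 6.72% of all genes. Slc1a3 is also among the 10 markers of astrocytes and RGLs. Together these markers were at 455 CPM in mature and 86.1 CPM in immature neurons of the MeOH-fixed library. Whether RNA from astrocytes played a part in the Slc1a3 call was not tested. 9 of the 16 higher genes also met the rule in the fresh library, and of the 4 lower ones Slc17a6 did.

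In astrocytes and RGLs the transporters and glutamine synthetase dominated the list. The glutamate transporters Slc1a2 and Slc1a3 were at 10072 and 5612 CPM and glutamine synthetase (Glul) at 5203 CPM in the MeOH-fixed library, all among the genes higher than in OPCs, where they were at 343, 150.1 and 214 CPM. Against OPCs, 5 of 17 tested genes of the list were higher and 6 lower, the lower ones being Slc1a1, Neto1, Dpp6, Nlgn2, Clptm1 and Slc12a2, beside 8.43% and 13.2% of all genes. Against oligodendrocytes, OPCs were higher in 5 of 14 (among them Slc1a2, Neto1, Dpp6 and Nlgn2) and lower in 2 (Glul and Slc12a2), beside 9.1% and 10.1%. Against astrocytes and RGLs, nIPCs and neuroblasts were higher in 3 of 16 and lower in 5, beside 18% and 10.1% of all genes, and neurons higher in 18 of 31 and lower in 6, beside 15.1% and 7.09%.

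Over all filtered cells, 9 of 31 subunits with 10 UMIs were higher in the MeOH-fixed library and 0 lower, against 5.81% and 4.97% of 10794 genes. They included Gria1, Grin1, Grm5, Grm2, Gabra4, Gabra5 and Gabrb2, from 2.13-fold (1.78 to 2.57) for Gria1 to 3.96-fold (2.7 to 5.97) for Grm5. The MeOH-fixed library had 44 of 132 cells labelled immature or mature neurons and the fresh library 7 of 64. With each identity given equal weight, 3 of the 9 kept a 2-fold difference (Grin1 at 3.00, Grm5 at 3.13 and Grm2 at 2.20). That mean includes the 2 fresh cells that went against their label as mature neurons, and without mature neurons the ratios were 1.57, 1.82 and 1.19, so none of the 9 kept 2-fold. Within immature neurons, 22 of 24 subunits had overlapping intervals in the libraries and the median ratio of MeOH-fixed to fresh was 0.983, beside 94% of 6332 genes and a median ratio of 1.06. The 1 call there, against 2.02% of genes higher and 2.72% lower, was Gabbr1, with 268 CPM from 81 UMIs (213 to 334) in MeOH-fixed and 114 CPM from 11 UMIs (57.1 to 205) in fresh cells. Gria2 was lower in MeOH-fixed cells in astrocytes and RGLs (347 against 904 CPM), where 2.24% of 2947 genes were lower and 2.38% higher, and in nIPCs and neuroblasts (443 against 1087 CPM), where 1.95% of 5031 genes were lower and 3.78% higher. In oligodendrocytes, where 2.75% of 2038 genes were lower and 2.45% higher, Gabbr1 met the rule as lower from single cells. Its 2 MeOH-fixed UMIs lay in 1 of 13 cells and its 8 fresh UMIs in 1 of 2. Fixation, the mice and the plate differed together between the libraries and cannot be told apart.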

How the data were processed

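Cells of the dentate gyrus were sorted into 384-well plates of SORT-seq, and 1 library was made from fresh and 1 from MeOH-fixed cells. Per the labels and the study's methods, the authors mapped reads to GRCm38 with STAR, corrected counts for the number of possible UMIs (4096), filtered barcodes by counts and genes, and assigned identities with Seurat 4.1.0 in R 4.2.0. No reference to strand was found in the sources used here, and no doublet caller was run beyond the authors' upper limit on counts.

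The deposited values are expected counts, that is counts that the authors raised for saturation of UMIs. Inverting this correction gave whole UMIs with a largest distance of 3.64e-12 from a whole number, and summed deposited counts were 1.15% above the UMIs. The table of cells that the authors deposited also holds percent of mitochondrial counts, log10 of counts and of gene numbers, and the ratio of transcripts to genes, which the authors computed per cell from these counts. The percent is printed here as deposited, and the others were not used.

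UMIs were summed over the cells of an identity and library and given as CPM with exact Poisson intervals, shares with exact Clopper-Pearson intervals and ratios with exact conditional intervals (Python 3.11.15, numpy 2.4.6, pandas 2.3.3, scipy 1.17.1, matplotlib 3.10.9). With 1 library per condition no test was made. A gene was called different between identities of the MeOH-fixed library, or between libraries, at 10 UMIs or more over both groups, a CPM ratio of at least 2 and intervals that did not overlap. A group with no UMI entered a ratio with 3 counts. The percent of all genes called by this rule stands beside each count of subunits. The rule was run on simulated summed counts drawn from the same Poisson model that its intervals assume. These had no differences between cells, so the run could not show how far single cells drive a call. Cells were thinned to 800 UMIs, which no cell fell short of, where depth mattered.

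All subunits with 10 UMIs over both libraries were described by class, those with fewer by count and name, and values were given in full for subunits called along the granule cell lineage or between OPCs, oligodendrocytes and astrocytes and for the subunit with the most UMIs of a class. Of the other genes of the pathway, those called along the lineage were named. Values of some genes of these lists are not reported here and are left out of the figures, while counts and sums cover all. The subunits, lists and comparisons were chosen with earlier results of these data known. Alternatives were the fresh library, both libraries summed, the deposited counts, other limits, totals and weights, thinning, and leaving out cells.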

Additional observations from a re-analysis of the deposited data

Results flagged for a closer look

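Receptor subunit transcripts were found in barcodes that the authors' filter removed. They held 486 UMIs in the fresh library, of which 393 UMIs of 26 subunits lay in 1 barcode of 44514 UMIs and 93 in the 319 others, and 143 UMIs in the 252 removed barcodes of the MeOH-fixed library. The barcode of 44514 UMIs was above the authors' upper limit on counts. Each plate also had 8 wells left empty.

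Gria2 was 2.02 times as high in mature as in immature neurons of the MeOH-fixed library and 0.146 times as high in the fresh library, where the 2 cells labelled mature neurons lacked most neuronal markers. The ratio of Gria2 in MeOH-fixed to fresh cells was 0.384 in astrocytes and RGLs, 0.407 in nIPCs and neuroblasts and 12.1 in the cells labelled mature neurons. The same ratio for Gabbr1 was 2.34 in immature neurons and 0.067 in oligodendrocytes, where all 8 fresh UMIs lay in 1 cell and both MeOH-fixed UMIs in 1 cell. These differences between identities or libraries were not tested.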

How the results depend on the processing

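Of 92 alternative values of the counts of subunits called, of classes led by neurons and of identities below the neurons, 67 lay within 1.5 times the value reported and 25 did not. Thinning to 800 UMIs per cell left 2 calls between immature neurons and nIPCs and neuroblasts, 2 between mature and immature neurons, 0 between OPCs and oligodendrocytes, between astrocytes and RGLs and OPCs, and between nIPCs and neuroblasts and astrocytes and RGLs, 10 between neurons and astrocytes and RGLs and 2 between the libraries, and 4 classes led by neurons in place of 7. Thinning removes most UMIs, so fewer subunits could be called. Between mature and immature neurons, 2 subunits were called at 4-fold, 3 with each cell of equal weight, 2 without the deepest cells and 2 without the deepest mature neuron. Between OPCs and oligodendrocytes, 8 were called with both libraries summed, 4 at 5 UMIs and 1 at 20 UMIs. Between astrocytes and RGLs and OPCs, 7 were called in the fresh library, 11 with both summed and 2 at 20 UMIs. Between nIPCs and neuroblasts and astrocytes and RGLs, 8 were called in the fresh library and 8 with both summed. Between the libraries, 0 were called at 4-fold, 3 with each identity of equal weight, 0 with each identity of equal weight but without mature neurons, and 3 by the mean count per cell. Of the 6 identities whose median number of subunits per cell was below that of both neuronal identities, 2 remained in the fresh library, where the 2 cells labelled mature neurons were low. Where no cause is named, the cause was not tested. No call was opposite to the reported one in any alternative but the fresh library, which had 1, Gria2 between mature and immature neurons. Leaving out cells rich in Reln, cells with a Mog UMI, the deepest mature neuron or, between the libraries, mature neurons was chosen after seeing the data. The depth of identities with few cells limits calls of scarce subunits.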

Other observations

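Gria4 was also found outside OPCs. In the fresh nIPCs and neuroblasts, 4 of the 6 Gria4 UMIs lay in the 1 cell with at least 5 Reln UMIs, and in the MeOH-fixed library 1 of 4 lay in the 4 such cells. All 8 Gria4 UMIs of MeOH-fixed mature neurons lay in the 1 cell that also held 14 Calb2 and 8 Slc17a7 UMIs.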
